A study of Rattus norvegicus with 21 samples.

Results

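The genes of the proteasome were followed in the messenger RNA of INS-1 832/13 cells, a rat line grown from an insulin-secreting beta cell tumour. Members were the rows of the deposited mRNA table whose gene name starts with Psma, Psmb, Psmc, Psmd, Psme, Psmf or Psmg and a digit, leaving out the immunoproteasome subunits Psmb8, Psmb9 and Psmb10, and whose mean over the 9 mRNA libraries reached 10 normalized counts. Of 49 rows with such names, 3 were those immunoproteasome subunits and 44 of the other 46 passed the minimum, out of 14410 genes of the whole table that passed it. Psmd10 was the member closest to the minimum, at a mean of 141 normalized counts. Below it lay Psma8, the alpha subunit known from the testis, at a mean of 0.238, and Psmb11, the beta subunit known from the thymic cortex, listed at 0. The 44 members hold 31 subunits of the 20S and 19S particles and 12 accessory factors. The last, Psmc3ip, carries the name of a subunit but encodes a partner of the meiotic recombination machinery and is not a proteasome protein.

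The mRNA was measured in 5 libraries labelled as exposed to 1 µM inorganic arsenic (iAs) for 24 h and in 4 labelled untreated, all from cells plated a day before exposure. Inorganic arsenic is a metalloid pollutant of drinking water whose trivalent form binds protein thiols. The series also holds small RNA libraries of cells given iAs, cadmium or manganese, which carry no values for these genes and were not used here. The labels name the line and describe the cells as insulinoma cells, but give the tissue as liver. No label ties a library to a culture of its own, and the p-values may therefore reflect technical spread among the libraries only.

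The proteasome is the protease that removes proteins tagged with ubiquitin. Its 20S core is a barrel of alpha and beta rings in which a few beta subunits cut the peptide chain, and its 19S regulatory particle recognises ubiquitin, unfolds the substrate with a ring of ATPases and feeds it into the barrel. Dedicated chaperones assemble both particles, and other caps, the Psme proteins, can take the place of the 19S particle. In beta cells, which make large amounts of proinsulin, the proteasome also clears misfolded chains exported from the endoplasmic reticulum. Transcription of the subunit genes is known to be driven together by Nfe2l1 when the proteasome is inhibited.

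Library totals ran between 51009800 and 55869159 normalized counts, and Pearson's r between libraries of a group, over log2 values, was 0.974 to 0.989. The stress gene Hmox1, which arsenite is known to induce, averaged 1739 ± 465 normalized counts in the libraries labelled iAs and 14132 ± 1727 in those labelled untreated (SD, n = 5 and n = 4), and the metallothionein gene Mt1 was likewise lower in those labelled iAs, at 887 ± 249 against 3671 ± 1312 in those labelled untreated. Both go against what the labels would give. Of the other 2 oxidative stress genes looked at, Txnrd1 differed by -0.01 (limma adjusted p = 0.895) and Slc7a11 by -0.82 (limma adjusted p = 0.407), and neither was called. Slc7a11 was far higher in iAs replicate 2 (819.6 normalized counts) and untreated replicate 4 (868.2), whose library codes share an ending, than in the rest. The remaining libraries had 74.7 to 137.7 in the iAs group and 144.6 to 188.7 in the untreated group, without overlap. Its uncalled result therefore does not show that Slc7a11 was unchanged. Every direction below rests on the labels as given. By their library codes the iAs libraries were all in sequencing lane 4 and the untreated ones all in lane 3, so a lane effect cannot be told apart from a group difference. The 6 beta cell markers summed to 1385000 to 1931000 normalized counts in the iAs libraries and 1766000 to 2278000 in the untreated ones, with 1 of 6, Nkx6-1, called lower. Of the hepatocyte markers, Cyp2e1 was at 0 in every library and Alb reached at most 2.01 normalized counts, against the labelled tissue. The others listed were present, with means over the 9 libraries of 423 for Fgb, 326 for Serpina1 and 12.9 for Apoa1. The 5 hepatocyte markers in the table summed to 399 to 640 in the iAs libraries and 831 to 1241 in the untreated ones, and 1 of the 3 that could be tested, Fgb, was called lower.

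The proteasome genes as a group differed little between the libraries labelled iAs and those labelled untreated, and 6 of the 9 members past the threshold lay outside the particle itself. Psmg1, a chaperone of core assembly, was higher, while Psme1, Psme2, Psmf1, Psmd5, Psmd9, Psmc4, Psma1 and Psmd4 were lower, with the largest difference a Psme2 level at 71.0% of the untreated one. Thus 1 member was called higher and 8 were called lower by limma at a Benjamini-Hochberg adjusted p under 0.05 over all genes. That is 20.5% of the 44 members, against 30.0% of all 14410 genes tested, of which 15.1% were higher and 14.9% lower. Among the 7650 genes that averaged 1000 normalized counts or more, the range that holds all members but Psmd10, 36.6% were called. Members called were thus below the background share, not above it. Of the 44 members, 34 had a negative difference, or 77.3%, against 50.1% of all genes. Their median log2 difference, iAs minus untreated on the log2(normalized count + 1) scale, was -0.07, and the median over all genes tested was 0.00. The groups did not overlap for 11 members, or 25.0%, close to the 25.9% of all genes. In bulk RNA a lower level in fewer cells and less RNA in each cell cannot be told apart.

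**Figure D1:**
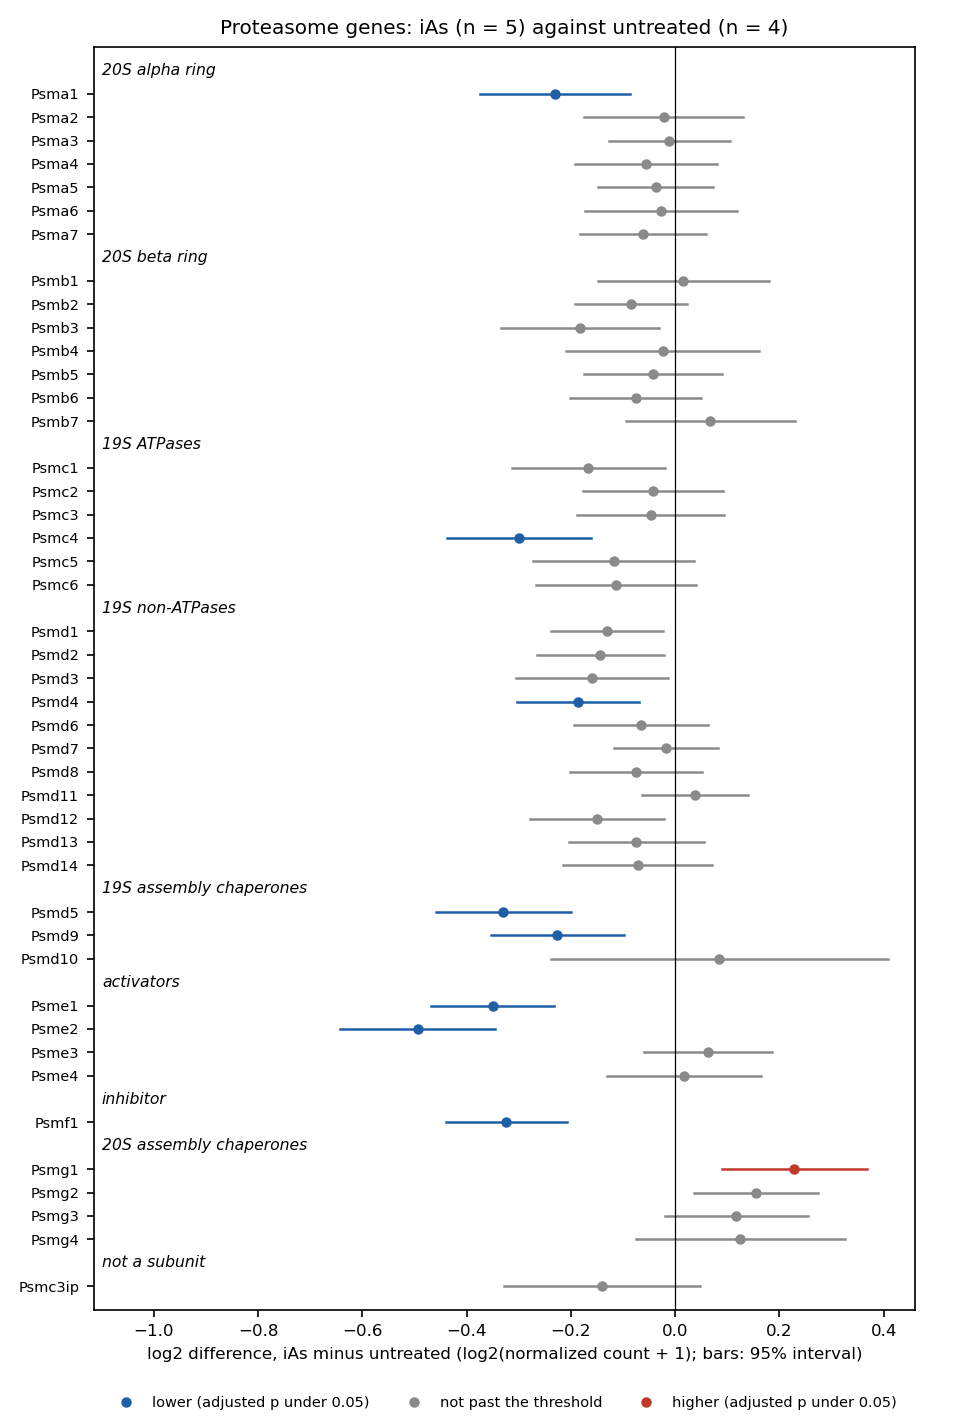
Log2 difference of each of the 44 members, iAs minus untreated libraries (n = 5 and n = 4), with its 95% interval, grouped by place in the proteasome. Most grey points of the 20S and 19S particles sit just left of 0, and the blue points farthest to the left are Psme2, Psme1, Psmd5 and Psmf1, outside the particles.

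The 31 structural subunits held 0 genes called higher and 3 called lower, Psma1, Psmc4 and Psmd4, or 9.68% of them. An unadjusted limma p under 0.05 was seen in 9 of the 31, and in a larger share of all genes tested, 5868 of 14410. Their differences were small but leaned to the same side, with 28 of 31 negative and a median of -0.07. The 28 subunits that were not called had differences between -0.18 and 0.07, and all of their 95% intervals lay within -0.33 to 0.23. The 12 accessory factors held 1 gene called higher and 5 called lower. Their median was 0.04, with 5 of 12 negative. Whether the share called differs between subunits and accessory factors was not tested.

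The lean of the structural subunits went with whole libraries that moved together. In iAs replicate 1, 0 of the 31 subunits lay above their own mean over the 9 libraries, and in untreated replicate 1 all 31 did. The other iAs replicates, 2 to 5, had 6, 12, 22 and 22 subunits above the mean, and untreated replicates 2, 3 and 4 had 6, 25 and 22. Untreated replicate 2 therefore looked like the lower iAs libraries, and iAs replicates 4 and 5 like the upper untreated ones. Over all 44 members, the median deviation from each gene's mean was -0.16, -0.05, -0.03, 0.03 and 0.01 on the log2 scale in the 5 iAs libraries. In the 4 untreated libraries it was 0.12, -0.06, 0.07 and 0.03. The libraries with a negative median, iAs replicates 1, 2 and 3 and untreated replicate 2, were also the shallowest. Their approximate depth, from the value of a single read, was 44627193 to 48674351 reads, against 54299249 to 65751933 in the rest. Untreated replicates 1 and 3, the deepest, had the highest medians. Whether depth bears on the lean was not tested. The group means of these medians, -0.04 ± 0.07 for iAs and 0.04 ± 0.08 for untreated libraries (SD), differed by about 1 within-group SD, which was 0.07 when pooled. The same median over all genes was 0.00 or 0.01 in every library, which the scaling of the deposited values itself sets. Without iAs replicate 1 and untreated replicate 1, the median difference of the members was -0.01 and 24 of 44 were negative. This choice was made after seeing these values. The 2 were the lowest iAs and the highest untreated library by median deviation, so leaving both out favours a smaller difference by construction. Without untreated replicate 2, the lowest untreated library, the median difference was -0.10 and 36 of 44 were negative.

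**Figure D2:**
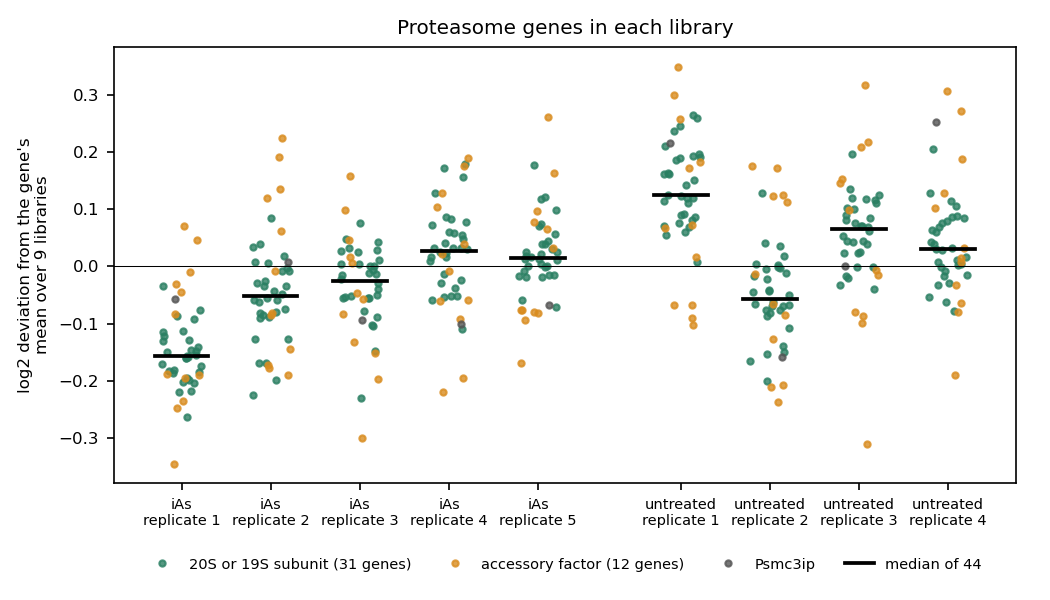
Log2 deviation of each member from its own mean over the 9 libraries (points), with the median of the 44 (black bars), for the 5 iAs and the 4 untreated libraries. The points of iAs replicate 1 lie almost all below 0 (42 of 44) and those of untreated replicate 1 almost all above it (40 of 44), while other libraries of the 2 groups lie at like heights.

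In the core particle, the alpha ring, whose gate controls entry to the barrel, held 1 gene called lower among its 7. This was Psma1 (ENSRNOG00000011745), which had 11852, 12658, 13709, 14003 and 14232 normalized counts in the iAs libraries, against 17035, 14647, 15526 and 15107 in the untreated ones. All 5 iAs values lay below all 4 untreated values, though the highest iAs value and the lowest untreated one were close. The means were 13291 ± 1005 in the iAs libraries and 15579 ± 1035 in the untreated ones (SD), a log2 difference of -0.23 ± 0.07 (SE) at an adjusted p of 0.0203 by limma. Without untreated replicate 1 the difference was -0.19 and the call was lost (adjusted p = 0.0704). All 7 alpha genes had a negative difference, with a median of -0.04, but 4 of 7 did without iAs replicate 1 and 5 of 7 without untreated replicate 1. Psma7, another alpha gene, had 16473, 18324, 18558, 18801 and 18325 normalized counts in the iAs libraries, against 19610, 17476, 18995 and 19422 in the untreated ones, and these overlapped. Its difference was -0.06, with a 95% interval of -0.18 to 0.06.

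The beta ring, which carries the proteolytic sites, held no gene past the threshold in limma among its 7, and 1 of the 7, Psmb3, had an unadjusted p under 0.05. The 3 catalytic subunits all had intervals that include 0. Psmb5, which cuts after hydrophobic residues, had 5097, 5626, 5712, 6275 and 5678 normalized counts in the iAs libraries, against 6047, 5540, 5734 and 6022 in the untreated ones, and the groups overlapped throughout. The differences were -0.04 for Psmb5 (95% interval -0.17 to 0.09), -0.08 for Psmb6, which cuts after acidic residues (-0.20 to 0.05), and 0.07 for Psmb7, which cuts after basic residues (-0.09 to 0.23). These intervals leave room for a change of up to 0.23 in size on the log2 scale in these genes. Psmb3, a beta subunit without a proteolytic site, had 10502, 10202, 11602, 12200 and 12039 normalized counts in the iAs libraries, against 14055, 11948, 13098 and 12202 in the untreated ones. The upper iAs libraries just reached the lower untreated ones, and the difference of -0.18 was not past the threshold (-0.33 to -0.03, limma adjusted p = 0.0673), though it was in 5 of 22 other settings. Psmb4, also without a proteolytic site, had a difference of -0.02 that changed sign when either iAs replicate 1 or iAs replicate 3 was left out.

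Among the 6 ATPases of the 19S ring, all of which had a negative difference (median -0.12), 1 was called lower. Psmc4 (ENSRNOG00000018994) had 8667, 9549, 8496, 9236 and 9569 normalized counts in the iAs libraries, against 11980, 9953, 11429 and 11498 in the untreated ones. Every iAs library lay below every untreated one, and untreated replicate 2 was the one close to the iAs libraries. The means of 9104 ± 498 in the iAs libraries and 11215 ± 877 in the untreated ones (SD) gave a log2 difference of -0.30 ± 0.06 (SE) at an adjusted p of 0.00393 by limma. Without both replicates 1, 4 of the 6 ATPases were negative, and all 6 were when only 1 of these libraries was left out. Psmc1, the next ATPase by adjusted p, had 11424, 12488, 12376, 13445 and 13522 normalized counts in the iAs libraries, against 15379, 12680, 14401 and 14384 in the untreated ones. Here untreated replicate 2 fell inside the iAs range, and the difference of -0.17 was not past the threshold (95% interval -0.31 to -0.02, limma adjusted p = 0.0814).

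Among the 11 non-ATPase subunits of the 19S particle, 10 had a negative difference (median -0.07) and 1 was called lower. Psmd4 (ENSRNOG00000021042), a receptor that binds ubiquitin chains, had 6810, 7141, 7682, 7525 and 7694 normalized counts in the iAs libraries, against 8892, 7992, 8367 and 8286 in the untreated ones. The groups did not overlap. The means of 7370 ± 385 in the iAs libraries and 8384 ± 375 in the untreated ones (SD) gave a log2 difference of -0.19 ± 0.05 (SE) at an adjusted p of 0.0202 by limma. The call was lost when untreated replicate 1 was left out (-0.16, adjusted p = 0.0704), and likewise for untreated replicate 3 (-0.19, adjusted p = 0.0509). Psmd2, a scaffold of the base of the particle, had 27214, 28996, 29078, 29431 and 29882 normalized counts in the iAs libraries, against 34628, 30203, 32804 and 30269 in the untreated ones. These did not overlap either, with a gap that was small beside the spread of the untreated libraries, and the difference of -0.14 was not past the threshold (95% interval -0.27 to -0.02, limma adjusted p = 0.0731).

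The 3 chaperones that guide assembly of the 19S base held 2 genes called lower, where 14.9% of all genes tested were called lower. Psmd5 (ENSRNOG00000018809), which binds the ATPase Psmc2 before the base is complete, had 3183, 3353, 3569, 3629 and 3362 normalized counts in the iAs libraries, against 4653, 4118, 4368 and 4057 in the untreated ones. The 2 groups were well apart. The means of 3419 ± 180 in the iAs libraries and 4299 ± 271 in the untreated ones (SD) gave a log2 difference of -0.33 ± 0.06 (SE) at an adjusted p of 0.00151 by limma. Psmd9 (ENSRNOG00000001339), which binds the ATPases Psmc3 and Psmc6, had 3475, 3938, 3610, 3713 and 3742 normalized counts in the iAs libraries, against 4492, 3920, 4381 and 4507 in the untreated ones. Untreated replicate 2 lay just below the highest iAs library, so the groups overlapped at this 1 point. The means were 3695 ± 171 in the iAs libraries and 4325 ± 276 in the untreated ones (SD), and the log2 difference was -0.23 ± 0.06 (SE) at an adjusted p of 0.0120 by limma. Psmd10, known as gankyrin, had 139, 127, 136, 153 and 168 normalized counts in the iAs libraries, against 148, 152, 113 and 134 in the untreated ones. Its groups overlapped, and its difference of 0.08 had a wide interval of -0.24 to 0.41.

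**Figure D3:**
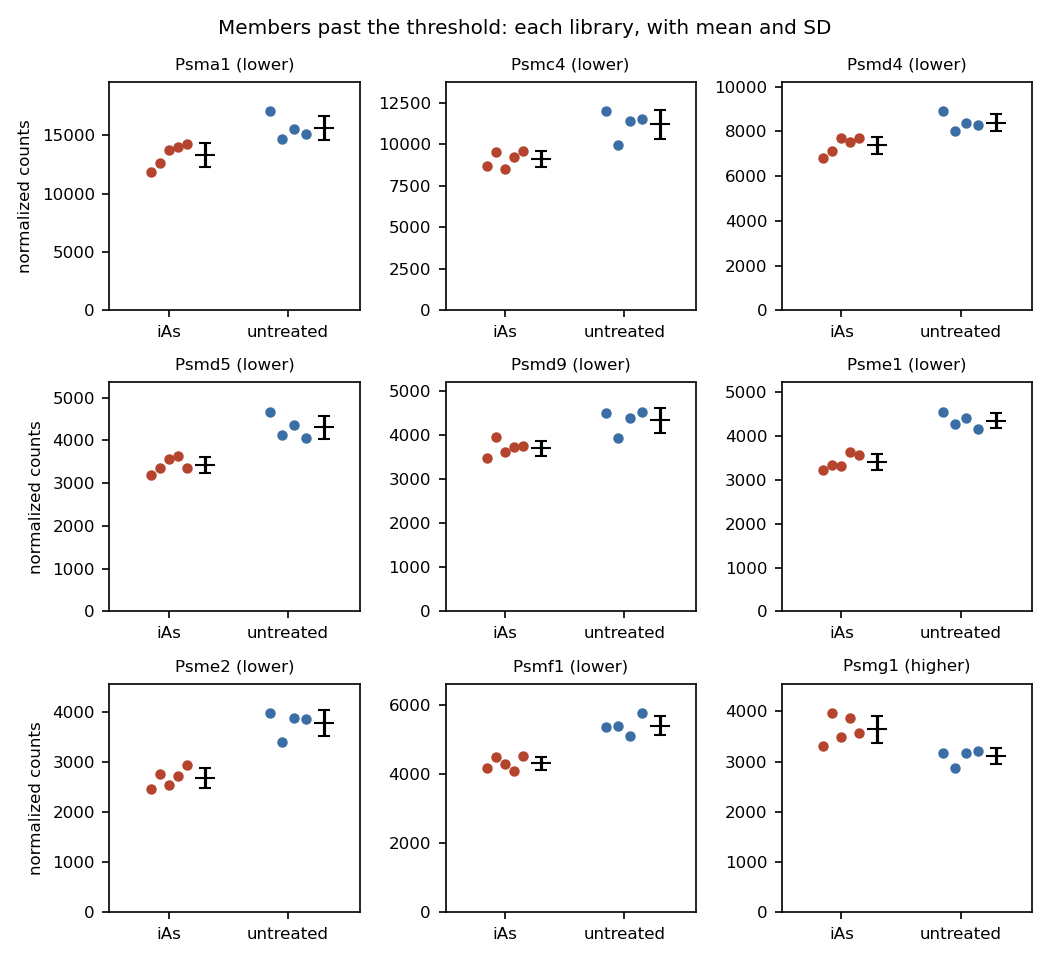
Normalized counts of the 9 members past the threshold in each iAs (red) and untreated (blue) library, with the mean and SD of each group beside the points; each axis starts at 0. The groups lie apart in all panels but Psmd9, where 1 untreated library reaches the iAs range, and Psmg1 is the panel with the iAs libraries above.

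The activator caps divided. Psme1 and Psme2, the subunits of the interferon-inducible PA28 alpha-beta cap that is linked to antigen processing, were both lower in the libraries labelled iAs, while Psme3, the nuclear PA28 gamma cap, and Psme4, the PA200 cap, were not called. Psme2 (ENSRNOG00000019246) had 2460, 2761, 2539, 2730 and 2957 normalized counts in the iAs libraries, against 3981, 3408, 3893 and 3866 in the untreated ones. Every iAs value was well below every untreated one, and the log2 difference of -0.49 ± 0.07 (SE) at an adjusted p of 0.000260 by limma was the largest of the 44 members. Psme1 (ENSRNOG00000019041) had 3227, 3332, 3315, 3644 and 3563 normalized counts in the iAs libraries, against 4545, 4284, 4421 and 4155 in the untreated ones. Its groups did not overlap either, with means of 3416 ± 178 in the iAs libraries and 4351 ± 169 in the untreated ones (SD) and a log2 difference of -0.35 ± 0.05 (SE) at an adjusted p of 0.000576 by limma. Psme3 had 7005, 7543, 8060, 7420 and 6852 normalized counts in the iAs libraries, against 7309, 6805, 6802 and 7298 in the untreated ones, and these overlapped (difference 0.06, 95% interval -0.06 to 0.19). Psme4 overlapped as well (difference 0.02, -0.13 to 0.16), and its sign changed under several other settings.

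The same genes sit beside the inducible catalytic subunits in biology: Psmb8, Psmb9 and Psmb10 replace Psmb5, Psmb6 and Psmb7 in the immunoproteasome. Psmb10 had 1951, 2273, 2177, 2598 and 2458 normalized counts in the iAs libraries, against 4194, 3049, 3587 and 3386 in the untreated ones, without overlap, and a log2 difference of -0.63 ± 0.10 (SE) at an adjusted p of 0.000650 by limma. Psmb8 had 182, 223, 155, 316 and 259 normalized counts in the iAs libraries, against 410, 293, 408 and 338 in the untreated ones. Of the untreated libraries 1 fell inside the iAs range, and the difference of -0.70 ± 0.20 (SE) was past the threshold (limma adjusted p = 0.0178), a call lost without untreated replicate 1 (-0.64, adjusted p = 0.0562) or replicate 3 (-0.64, adjusted p = 0.0569). Psmb9 overlapped and was not called (-0.24, 95% interval -0.57 to 0.09).

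To set each inducible or activator subunit against its counterpart within the same library, log2 ratios of normalized counts are given for 5 pairs, chosen after the values were seen. The ratio of Psmb10 to Psmb7 averaged -2.28 ± 0.06 in the iAs libraries and -1.58 ± 0.09 in the untreated ones (SD), a difference of -0.70. Psmb8 to Psmb5 averaged -4.69 ± 0.34 in the iAs libraries and -4.02 ± 0.21 in the untreated ones, a difference of -0.66. Psme2 to Psme3 differed by -0.56 and Psme1 to Psme3 by -0.41. For each of the 4 ratios, all 5 iAs libraries lay below all 4 untreated ones. Psmb9 to Psmb6 differed by -0.16, and its groups overlapped. The genes on top of the 4 ratios had been called lower and those below them had not. The ratios therefore describe the same difference within libraries, and no test of them is used here.

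**Figure D4:**
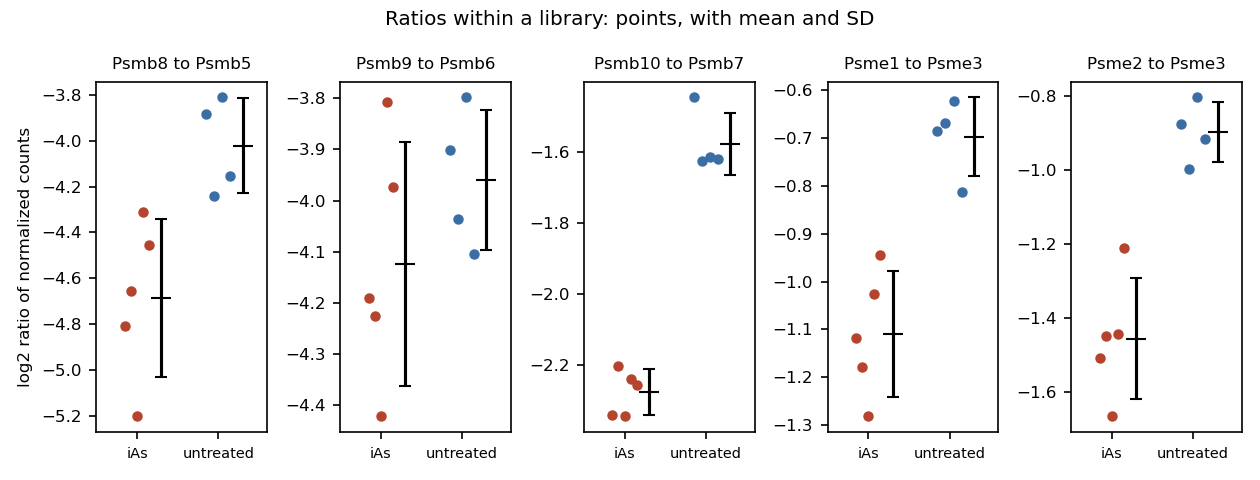
Log2 ratio of the normalized counts of 5 gene pairs in each iAs (red) and untreated (blue) library, with group mean and SD. The groups lie apart for Psmb8 to Psmb5, Psmb10 to Psmb7, Psme1 to Psme3 and Psme2 to Psme3, and overlap for Psmb9 to Psmb6.

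Of the markers of fibroblasts, endothelium and immune cells, Cd74 and Col1a1 were lower in the libraries labelled iAs, as were these interferon-inducible genes. The 5 listed markers in the table summed to 1.86 to 36.0 normalized counts in the iAs libraries and 77.0 to 129 in the untreated ones, and Cd74 and Col1a1 were the 2 with a mean high enough to be tested. Of the untested ones, Col1a2 reached at most 15.3 in the iAs libraries and 7.27 in the untreated ones, and Cdh5 at most 1.86 in the iAs libraries and 8.68 in the untreated ones. Ptprc, the defining marker of leukocytes, was at 0 in every library. Cd74, the invariant chain of the class II complex, had 21.2, 0, 12.4, 24.5 and 9.59 normalized counts in the iAs libraries, against 84.4, 95.8, 92.0 and 50.6 in the untreated ones. The part of other cells in the Psme1, Psme2, Psmb8 and Psmb10 values was not tested.

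Promoter sequence is shown for the lower activator genes, for Psmb10 and for the chaperone Psmd9, because these carry or lack the 2 short motifs that were searched. The sequences, from RefSeq on the GRCr8 build, run from 250 bases before to 50 after the annotated gene start, 5′ to 3′ on the gene's strand. Capitals mark matches, on either strand, to GAAA, any 2 bases and GAAA again, a core of the interferon-stimulated response element, or to TGACNNNGC, a core of the antioxidant response element bound by the Nfe2l factors. Psme1 is at chr15:33038721-33039020 (plus strand), Psme2 at chr15:33052702-33053001 (minus strand), Psmb10 at chr19:50743243-50743542 (minus strand) and Psmd9 at chr12:39018215-39018514 (minus strand).
Psme1: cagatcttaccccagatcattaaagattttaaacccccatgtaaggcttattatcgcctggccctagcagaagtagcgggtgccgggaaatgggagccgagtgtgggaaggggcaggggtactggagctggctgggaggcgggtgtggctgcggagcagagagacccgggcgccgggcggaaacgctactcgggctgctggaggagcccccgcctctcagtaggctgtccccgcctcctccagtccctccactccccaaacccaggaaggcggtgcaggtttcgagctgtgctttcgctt
Psme2: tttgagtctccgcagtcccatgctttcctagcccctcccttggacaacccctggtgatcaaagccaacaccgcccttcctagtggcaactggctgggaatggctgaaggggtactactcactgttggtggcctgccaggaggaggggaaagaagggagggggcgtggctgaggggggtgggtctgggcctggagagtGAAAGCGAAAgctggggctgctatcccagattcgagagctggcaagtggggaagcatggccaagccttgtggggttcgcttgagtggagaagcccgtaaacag
Psmb10: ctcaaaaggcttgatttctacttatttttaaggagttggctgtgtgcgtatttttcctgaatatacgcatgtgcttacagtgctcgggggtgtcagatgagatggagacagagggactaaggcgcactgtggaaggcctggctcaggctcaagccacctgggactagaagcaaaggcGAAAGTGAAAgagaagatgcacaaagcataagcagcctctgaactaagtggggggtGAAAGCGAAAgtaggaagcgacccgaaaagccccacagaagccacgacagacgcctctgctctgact
Psmd9: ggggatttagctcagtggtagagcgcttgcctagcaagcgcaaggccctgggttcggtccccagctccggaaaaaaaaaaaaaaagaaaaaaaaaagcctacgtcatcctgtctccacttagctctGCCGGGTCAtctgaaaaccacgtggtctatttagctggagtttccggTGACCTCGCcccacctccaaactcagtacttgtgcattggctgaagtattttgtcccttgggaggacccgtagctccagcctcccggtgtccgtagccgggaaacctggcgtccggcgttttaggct

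Psme2 held 1 match to the interferon core and Psmb10 held 2, of which 1 in each is the same 10 letters, GAAAGCGAAA. Psme1 held neither motif in this window. Promoters were matched for 40 of the 44 members, among them all 9 called ones, and not for Psma7, Psmd6, Psmd12 and Psmd14. The interferon core was found in 5 of the 40, or 12.5%, against 3.92% of all 33469 promoters of the same length. Those 5 were Psma4, Psmb3, Psmd7, Psme2 and Psmg4, of which only Psme2 was called. TGACNNNGC was found in 8 of the 40, against 12.1% of all promoters. These were Psma3, Psmb2, Psmb5, Psmb6, Psmd1, Psmd3, Psmd9 and Psme4, and of them only Psmd9, with 1 match on each strand, was called. A match describes letters in the window and no more.

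Psmf1 (ENSRNOG00000009640), which encodes PI31, a protein that binds the core and inhibits it in vitro, was lower in the libraries labelled iAs. It had 4180, 4505, 4293, 4094 and 4521 normalized counts there, against 5375, 5383, 5108 and 5758 in the untreated libraries. The groups lay far apart for their spread, at 4319 ± 191 in the iAs libraries and 5406 ± 267 in the untreated ones (SD), and the log2 difference was -0.32 ± 0.05 (SE) at an adjusted p of 0.000838 by limma. Psmf1, Psme1, Psme2, Psmd5 and Psmc4 passed the threshold in every alternative setting run.

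The chaperones that build the core differed in sign from most members. All 4, Psmg1 to Psmg4, had a positive difference, with a median of 0.14, and 1 was called higher; the sign of all 4 was positive in every other setting run. Psmg1 (ENSRNOG00000001643), which pairs with Psmg2 to seed the alpha ring, had 3317, 3961, 3500, 3867 and 3577 normalized counts in the iAs libraries, against 3182, 2875, 3166 and 3206 in the untreated ones. All iAs libraries lay above all untreated ones, with iAs replicate 1 closest to them. The means of 3644 ± 266 in the iAs libraries and 3107 ± 156 in the untreated ones (SD) gave a log2 difference of 0.23 ± 0.06 (SE) at an adjusted p of 0.0177 by limma. Its partner Psmg2 had 1584, 1637, 1615, 1531 and 1542 normalized counts in the iAs libraries, against 1404, 1381, 1426 and 1473 in the untreated ones. These did not overlap, and the difference of 0.15 missed the threshold narrowly (95% interval 0.04 to 0.27, limma adjusted p = 0.0503). Psmg3, which pairs with Psmg4, overlapped (difference 0.12, -0.02 to 0.25). Psmc3ip, the member that is not a proteasome gene, had a difference of -0.14 (-0.33 to 0.05).

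Around the proteasome, the polyubiquitin gene Ubb differed far more than any member. Ubb, which encodes ubiquitin repeats in a row, had 77800, 82568, 87010, 89841 and 98387 normalized counts in the iAs libraries, against 156594, 145090, 163018 and 175706 in the untreated ones. Every iAs library was far below every untreated one, and the log2 difference was -0.88 (limma adjusted p = 2.16e-05). For Rps27a, which encodes ubiquitin fused to a ribosomal protein, the 2 rows of the table with that name were called higher (0.42 and 0.31). The row at 0.31 lost its call without iAs replicate 4, iAs replicate 5 or untreated replicate 2 (adjusted p = 0.0663, 0.0713 and 0.0515). Since the 2 Rps27a rows share a name and ubiquitin repeats resemble each other, the counting may have split or shared their reads, and these values are uncertain. Uba1, the main ubiquitin-activating enzyme, was lower (-0.26, limma adjusted p = 0.00480).

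The VCP segregase, which extracts ubiquitin-tagged proteins for the proteasome, had 6 of 9 listed genes called lower and 0 higher, with a median of -0.18, where 14.9% of all genes tested were called lower. Vcp itself differed by -0.20 (limma adjusted p = 0.0174), its cofactor Nsfl1c by -0.25 (limma adjusted p = 0.00186) and Ubxn1 by -0.31 (limma adjusted p = 0.00163). The others called were Nploc4, Faf2 and Ubxn4. The count of 6 fell to 2 without untreated replicate 1 and to 3 without untreated replicate 3. Proteasome-associated factors and shuttles held 1 gene higher and 1 lower of 14 (median 0.00), or 14.3% called against 30.0% of all genes tested. The higher one, the shuttle gene Ubqln2 (0.23), lost its call in 12 of 22 other settings, 6 of them with 1 library left out. The lower one was Adrm1, a ubiquitin receptor of the 19S particle, which had 11142, 12903, 11639, 11993 and 11710 normalized counts in the iAs libraries, against 14767, 14318, 13851 and 16313 in the untreated ones, without overlap (difference -0.32, limma adjusted p = 0.00201). Pomp, the maturation factor of the core, differed by -0.41 with a wide interval (-0.77 to -0.04, limma adjusted p = 0.0857), and Usp14, a deubiquitinase of the 19S particle, by 0.00 (-0.14 to 0.14).

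Of 12 listed regulators of proteasome gene expression and stress, 1 was called higher and 2 lower, with a median of -0.06; the 3 called are 25.0% of the list, against 30.0% of all genes tested. The higher one, Foxo4 (0.30), lost its call in 10 of 22 other settings, with 7 of the 9 libraries among those whose removal ended it. Nfe2l1, the factor that drives subunit genes after proteasome inhibition, differed by -0.18 and was not past the threshold (95% interval -0.34 to -0.01, limma adjusted p = 0.100). Nfe2l2, the antioxidant response factor, differed by -0.08 (-0.27 to 0.12). Keap1, the adaptor that marks Nfe2l2 for degradation, was lower by -0.39 (limma adjusted p = 0.000143). Zfand2a, a heat-shock gene that arsenite is known to induce and whose product binds the 19S particle, had 8258, 10412, 8355, 10263 and 9843 normalized counts in the iAs libraries, against 15014, 12762, 14968 and 15538 in the untreated ones. The groups did not overlap, and the difference was -0.63 (limma adjusted p = 0.000227), so Zfand2a, like Hmox1, was lower in the libraries labelled iAs.

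**Figure D5:**
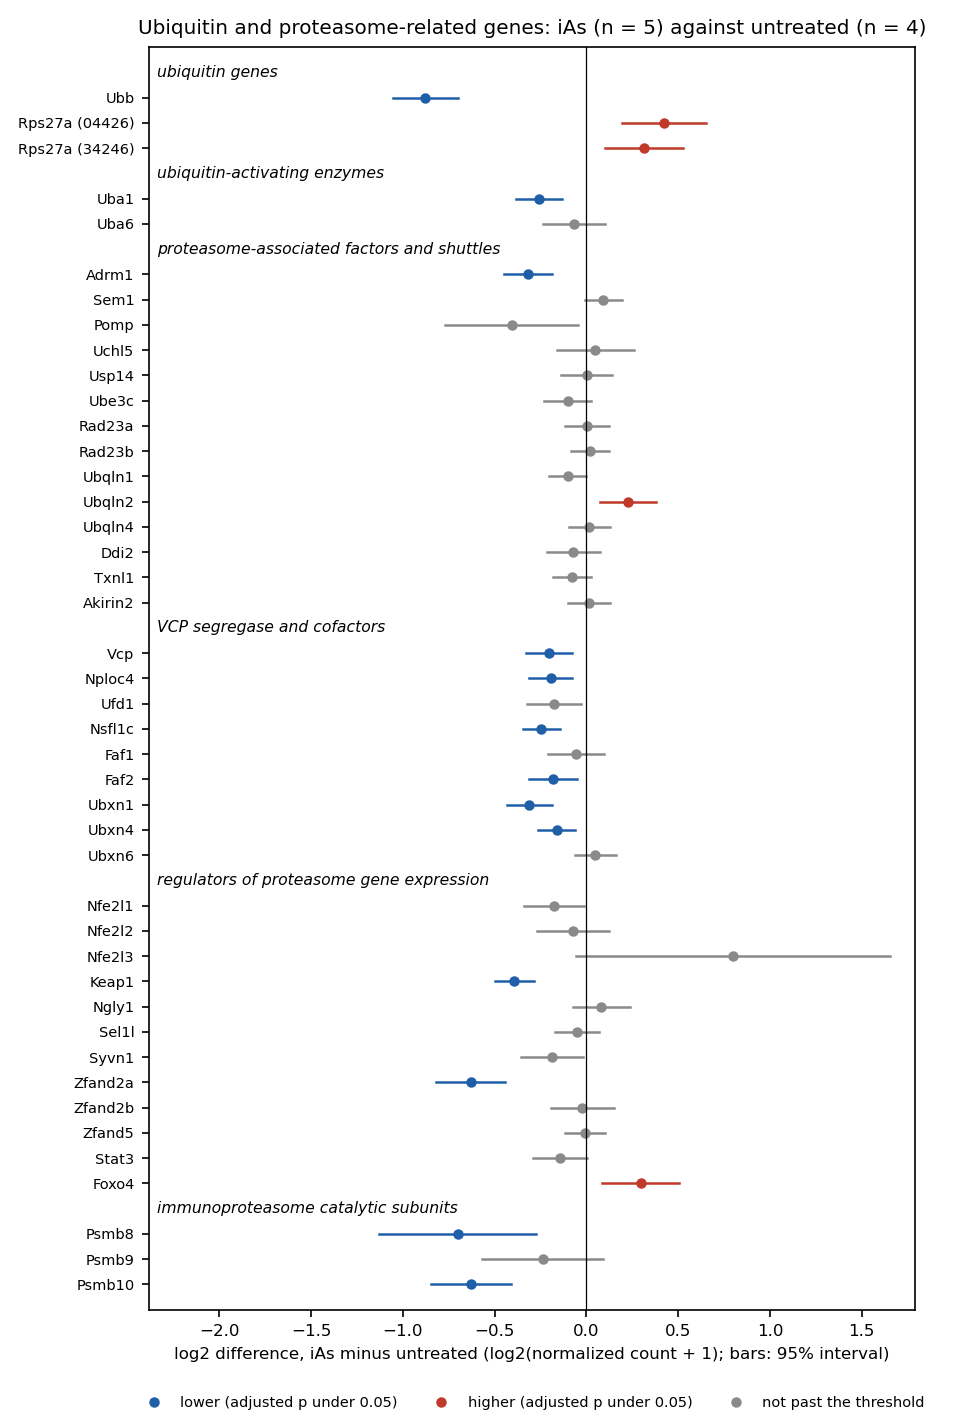
Log2 difference of genes of the ubiquitin system and of proteasome-related lists, iAs minus untreated libraries (n = 5 and n = 4), with 95% intervals. Ubb lies far left of the proteasome members' range of -0.49 to 0.23, and 6 of the 9 VCP genes are blue, called lower.

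Library codes carry 3 kinds of ending, and the labels do not say what they stand for. The 3 iAs and 2 untreated libraries whose code ends in 52 were compared alone, as both other endings have a single library per group. Within them the member median was -0.12, with 6 members called lower and 0 higher. Psme1, Psme2, Psmf1, Psmd5, Psmc4 and Psmd9 kept a limma adjusted p under 0.05, with differences of -0.37, -0.54, -0.30, -0.41, -0.35 and -0.28. Psma1 (-0.29, adjusted p = 0.0604), Psmd4 (-0.23, adjusted p = 0.0539), Psmg1 (0.17, adjusted p = 0.153) and Psmb8 (-0.73, adjusted p = 0.0533) did not. RefSeq names 46 pseudogenes after 19 of the members, none of which has a row in the table, and Psmc4, Psme1 and Psme2 are the called members among them, so reads of near-identical copies may be counted in their values.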

How the data were processed

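The deposited mRNA table holds normalized counts per gene, a depth-scaled signal that the authors made from reads of libraries from an mRNA kit; per the submitters' processing notes STAR, Salmon and DESeq2 were used with genome build rn6. The values are not whole reads and not scaled for gene length, so levels of different genes were not compared. Of the gene pair ratios, only the difference between groups is read, not the size of a ratio itself. Library totals are sums of depth-scaled values and do not give the sequencing depth. An approximate depth, from the value of a single read in each library, was 44627193 to 58448539 reads in the iAs libraries. It was 48664671 to 65751933 in the untreated ones, with untreated replicates 1 and 3 the deepest of all. Whether depth bears on the group differences was not tested. Columns were matched to samples by their descriptions; 4 titles carry a library code of another replicate of the same group. There were 0 unused columns of per-sample values. The small RNA table was not used.

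From these values, log2(normalized count + 1) was fitted with limma 3.58.1 in R 4.3.3 (lmFit, eBayes with a mean-variance trend) over 14410 of 32750 genes, those averaging 10 normalized counts or more, 5 iAs against 4 untreated libraries, without covariates. P-values were two-sided and adjusted by Benjamini-Hochberg over all 14410 genes, with a threshold of 0.05; a fold change on this scale understates the change of low genes. An exact permutation test was run on the ratios of gene pairs. Its p-values are not given, since the pairs were chosen after their values were seen. The fit was tested on simulated data with known changes in genes drawn at random from those tested. It recovered 22% of 1.2-fold, 60% of 1.5-fold, 80% of 2-fold and 92% of 4-fold changes (50 genes each). Only these genes changed in the simulation, while 30.0% of all genes were called in the data. The median residual SD was 0.146 over all genes tested and 0.093 over the members. The recovery rates therefore need not hold for the members. Small changes were often missed in the simulation, and a gene not called is not shown to be unchanged.

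Values were given for members past the threshold, for the member of each family with the smallest adjusted p, the largest difference or the highest mean, for up to 2 called genes in each related list and for set genes such as Nfe2l1 and Pomp. Faf2, Foxo4, Nploc4, Psmb5, Psmb6, Psmb7, Psmc3ip, Psme3, Psmg2, Ubxn4 and Vcp were added after their values were seen, and Rps27a came under the rule once other genes of its list were left out. The members and the gene lists were chosen with earlier results of these data known, so no list was tested as a set. Alternatives covered pseudocount, filter, scaling, code ending, replicate block, weights and each library left out. The replicate block left out iAs replicate 5, as no untreated library has that number. Some genes of the ubiquitin list are not reported here.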

Additional observations from a re-analysis of the deposited data

Results flagged for a closer look

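Among 92 groups of values checked, 7 held 1 library that stood apart from the others of its group by the gap between it and its nearest neighbour; chance gives about 1 in 20. Of the members, Psma7 stood apart in iAs replicate 1 (16473 normalized counts, the lowest of 5), Psmb4 in untreated replicate 2 (13096, the lowest of 4) and Psmg1 in untreated replicate 2 (2875, the lowest of 4). Untreated replicate 2 also stood apart for 1 of the Rps27a rows (19639) and for the ubiquilin gene Ubqln2 (18121). Untreated replicate 4 stood apart for Nfe2l1 (8391) and Keap1 (4742). Without untreated replicate 2, Psmg1 remained called and this Rps27a row did not (adjusted p = 0.0515).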

How the results depend on the processing

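The count of members called higher, 1 as reported, was 2 with a pseudocount of 0.5, a minimum mean of 50, the code ending as a term, array weights or no mean-variance trend, each time with Psmg2 added, and 0 within ending 52 and with a replicate block; leaving out 1 library gave 1 to 2. The count called lower, 8 as reported, was 14 with equal totals, the code ending as a term or array weights, 12 with quantile normalization, and 5 with a replicate block or without both replicates 1, an alternative added after seeing the data; leaving out 1 library gave 6 to 12, with 6 without untreated replicate 1 and 12 without untreated replicate 2. Over all genes, 2181 higher and 2140 lower became 1349 and 1415 with a replicate block, 1528 and 1429 within ending 52, and 1787 and 2528 with equal totals, which shifted the median of all genes by -0.03; the cause was not tested. No label says that the replicate numbers pair libraries. The correlations of same-numbered deviations (0.0313, -0.0372, 0.00766 and -0.0406) cannot settle whether they do. The block also left out iAs replicate 5, so its fewer calls are by themselves no measure of a weaker effect. For pairs that share a code ending the correlations ran from -0.0588 to 0.174, the highest for iAs replicate 2 with untreated replicate 4. Pairs of unlike ending ran from -0.137 to 0.0782. The main fit holds no term for the ending, and whether the ending marks a batch was not tested. The member median stayed between -0.12 and -0.01 in all settings, and between -0.10 and -0.04 with 1 library left out.

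Sign changes were seen in genes near 0. With 1 library, or both replicates 1, left out, the difference ran from -0.075 to 0.043 for Psmb4, -0.079 to 0.014 for Psmb5, -0.0030 to 0.14 for Psmd10, -0.044 to 0.071 for Psme4 and -0.055 to 0.060 for Usp14. Psme4 was also -0.017 with equal totals, -0.075 within ending 52 and -0.058 with array weights. Usp14 was -0.032 with equal totals, -0.00062 with the ending as a term, -0.099 within ending 52 and -0.043 with array weights. Psma1, Psmd4, Psmd9 and Psmg1 lost the call with the replicate block (adjusted p = 0.0587, 0.0741, 0.0748 and 0.0800), and Psma1, Psmd4 and Psmd9 without both replicates 1 (adjusted p = 0.118, 0.130 and 0.0820). Psmb3, Psmc1 and Psmd2 each gained a call in 5 of 22 settings, among them leaving out untreated replicate 2. The VCP count of 6 lower fell to 2 with the block. The spread between 5 and 4 libraries limits which small changes pass the threshold.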
